A study of Mus musculus with 2 samples.

Results

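The 10 genes described here encode the machinery that releases calcium from the sarcoplasmic reticulum of muscle and pumps it back: Ryr1, Cacna1s, Atp2a1, Atp2a2, Casq1, Casq2, Trdn, Jph1, Jph2 and Jsrp1. They were chosen by name for that role, with earlier results of these data known. All 10 were found among the 37325 gene names on the array, at 17 probes. Their mRNA was measured in myotubes of the C2C12 line, mouse myoblasts that were fused in 2% horse serum over 4 to 6 days. One culture received exosomes (secreted membrane vesicles) of a KPC line at 4 µg for 24 h, here called KPC-exo. That line was derived from a pancreatic tumour of mice carrying KrasLSL-G12D/+ and Trp53LSL-R172H/+ alleles together with Pdx1-Cre, a recombinase under a pancreatic promoter. The control culture received MPDC-exo, the exosomes of MPDC, a line of pancreatic duct epithelium from mouse, and the sources used here do not give their dose. There was 1 array per group and no untreated culture, so no test was possible and each difference below lies between 2 arrays. In a whole culture, fewer myotubes and less of an mRNA per myotube cannot be told apart.

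In skeletal muscle an action potential runs down the T-tubules, folds of the plasma membrane, and moves a voltage sensor whose pore-forming subunit is the product of Cacna1s. The sensor touches the ryanodine receptor, the product of Ryr1, across a narrow gap, and the receptor lets calcium out of the reticulum so that the filaments contract. Calsequestrins hold calcium inside the reticulum, triadin and the Jsrp1 protein sit beside the receptor, junctophilins tie the reticulum to the T-tubule, and the SERCA pumps return calcium for the muscle to relax.

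Each probe is a 60-base oligonucleotide, and 6 of the 17, picked by hand as likely coding, are shown. All 17 have a frame free of stop codons, so that did not pick these 6. No translation was compared with a protein sequence. No annotation of the files' build was used for this choice. The 6 probes were read 5′ to 3′ from the deposited files and are in lower case throughout, since no base in them is singled out.
Ryr1: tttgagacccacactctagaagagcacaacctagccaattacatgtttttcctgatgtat
Atp2a1: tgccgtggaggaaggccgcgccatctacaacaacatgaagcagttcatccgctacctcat
Atp2a2: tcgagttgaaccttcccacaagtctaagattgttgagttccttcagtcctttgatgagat
Trdn: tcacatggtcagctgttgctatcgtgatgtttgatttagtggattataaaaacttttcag
Jph1: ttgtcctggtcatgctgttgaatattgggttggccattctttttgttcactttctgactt
Jsrp1: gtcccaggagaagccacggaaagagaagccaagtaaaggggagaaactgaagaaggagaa
The Ryr1 probe maps to chr7:29788789-29789487 (mm9, minus strand), a span of 699 bases. It therefore crosses a gap in the genome, as a probe over a splice junction does. The Atp2a1 probe lies at chr7:133591703-133591762 and this Atp2a2 probe at chr5:122910660-122910719, both on the minus strand. Among all probes on the array, 2 shared a run of at least 15 bases with a member's probe while named for another gene or transcript. These runs were of 15 bases with a probe of Trdn and of 17 bases with the second probe of Ryr1.

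Junctophilin 2 was the member that stood apart. After KPC-exo, Jph2 was 2.13-fold lower, while the other 9 members lay within 1.5-fold, the size used here to call a difference. The signal of Jph2 was 2850 units after MPDC-exo and 2245 units after KPC-exo. The KPC-exo array was the brighter of the pair, with a 75th percentile of 639 units against 380 units, a ratio of 1.68. Of the 16 member probes well above background on both arrays, 15 had a higher signal on the KPC-exo array, by ratios from 1.19 to 2.05, and the Jph2 probe alone had a lower one, at a ratio of 0.788. With each array centred on its 75th percentile, the log2 level of Jph2 was 2.91 and 1.81, a log2 difference of -1.09. The scanner software gives an error for each spot, which propagates to 0.20 for this difference. That error is the software's own estimate for 1 spot per array and covers no variation between cultures. It was close to a fixed share of the signal at bright spots. At the measured member probes it ran only from 0.20 to 0.25, so comparing a difference with it resembles a constant cut.

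**Figure D1:**
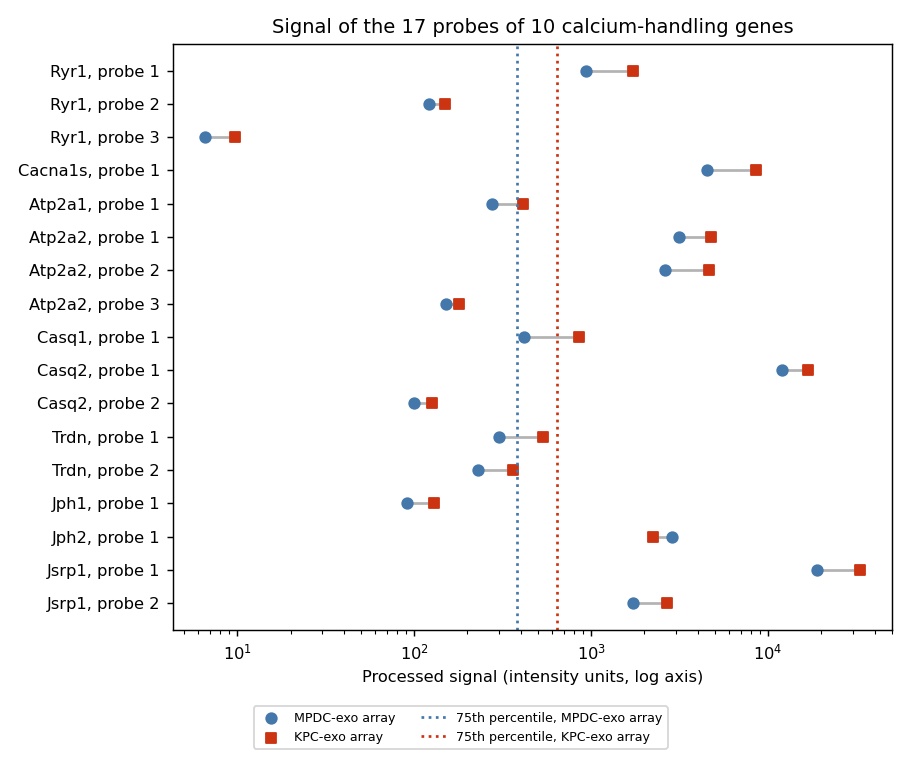
Processed signal of every probe of the 10 genes on a log axis, in intensity units, with the MPDC-exo array as circles, the KPC-exo array as squares and the 75th percentile of each array as a dotted line (380 and 639 units). The square lies to the right of the circle at every probe except that of Jph2, at 2850 and 2245 units, and levels of different probes are not comparable with each other.

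Of the 16993 genes measured, that is with a probe well above background on both arrays, 3.7% were lower after KPC-exo by 1.5-fold or more, and 3.73% were higher by as much. Among the 10 members 1 was lower and 0 were higher. The share of all genes at least 2-fold lower was 1.19%. It was 0.738% of the 12745 genes that are not dim, that is not under the 25th percentile of signal, and Jph2 is among these. There were 159 measured genes with a lower difference than Jph2. The median difference of the members was -0.04, against 0.06 over all measured genes. The numbers of higher and lower genes depended on the centring. They were 634 and 629 here, 498 and 742 when arrays were centred on the median of all probes, 275 and 436 after normexp background correction, and 15870 and 57 when centred on the 7 spike-in probes. The last of these centrings added 1.00 to each log2 difference and left Jph2 at -0.09, so each value is relative to the bulk of its array.

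**Figure D2:**
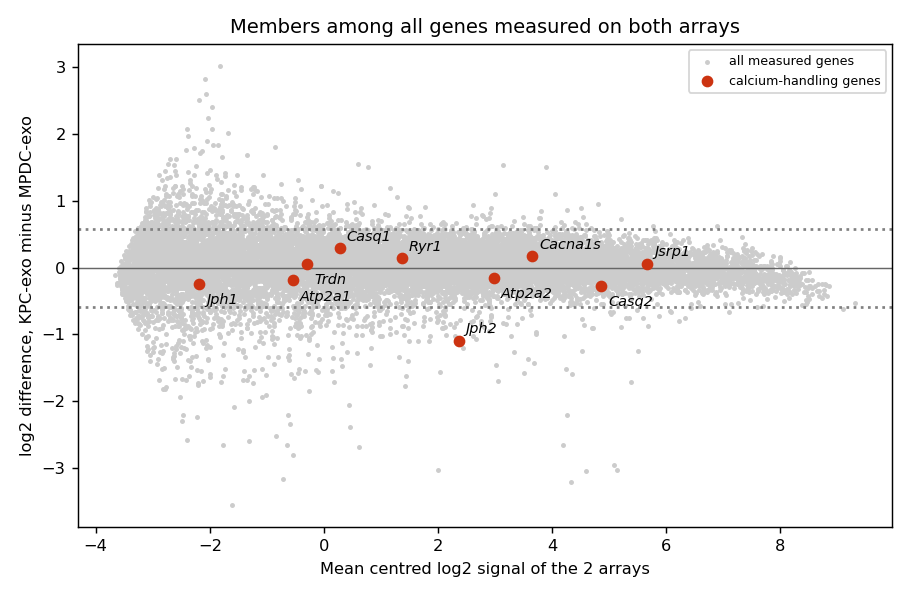
The log2 difference of each of the 16993 measured genes (grey) against its mean centred log2 signal over the 2 arrays, with the 10 members in red and dotted lines at 1.5-fold. Jph2 lies at -1.09, below the lower line, and the other members lie between -0.27 and 0.29.

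The voltage sensor and the release channel had small positive differences at their brightest probes. Cacna1s, whose product senses voltage in the T-tubule, had 4498 units after MPDC-exo and 8525 units after KPC-exo, the order in which values are given from here on. Its log2 difference was 0.17, with a scanner error of 0.20. Ryr1, whose product is the release channel, had 932 and 1725 units at its RefSeq probe, and a log2 difference of 0.14 with an error of 0.20. Neither difference exceeded that estimated error. The difference of Ryr1 minus that of Cacna1s was -0.03, a quantity free of any centring of a whole array. With the mean over the probes of a gene it was -0.32. The other 2 Ryr1 probes were designed on cDNA clones. That at chr7:29807633-29807692 was dim, with 121 and 150 units and a log2 difference of -0.44, opposite in sign to the RefSeq probe. That at chr7:29899378-29899437 was measured on neither array, with 6.61 and 9.67 units.

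The calcium pump genes had small negative differences at their brightest probes, within the scanner error. Atp2a1 encodes SERCA1, the pump of fast muscle fibres, and had 276 and 410 units. Its log2 difference was -0.18, with an error of 0.21. Atp2a2 encodes SERCA2, the pump of slow fibres and heart, which also has a form made in many tissues by a different choice of 3′ end. Its brightest probe, designed on transcript variant 1 at chr5:122906850-122906909, had 3143 and 4763 units and a log2 difference of -0.15. The probe on transcript variant 2, at chr5:122903704-122903763, had 2604 and 4626 units and a difference of 0.08. The probe of variant 2 minus that of variant 1 was 0.23, with a scanner error of 0.29. The third probe, printed above and listed for both variants, had 151 and 179 units and a difference of -0.50, with an error of 0.23. Atp2a1 minus Atp2a2 was -0.03 at the brightest probes, with a scanner error of 0.29. This value depends on the Atp2a2 probe taken, since those probes had -0.15, 0.08 and -0.50.

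The calsequestrin genes lay on opposite sides of 0. Casq1, the calsequestrin of fast skeletal muscle, had the highest difference of the members, with 416 and 854 units and a log2 difference of 0.29 (scanner error 0.21). Casq2, the form known from heart and slow or immature muscle, had 12052 and 16800 units at its brighter probe and a difference of -0.27 (scanner error 0.20). The dimmer Casq2 probe had 99.6 and 126 units and a difference of -0.40. Casq1 minus Casq2 was 0.56, which is a 1.47-fold shift in their ratio, with a scanner error of 0.29. It rested on 1 probe of Casq1. It lay under 1.5-fold here, at 0.43 with normexp, and passed it at 0.62 with the mean over the probes of a gene.

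Triadin and the Jsrp1 protein, both bound near the release channel, differed little. Trdn had 303 and 532 units at the probe printed above, at chr10:32859030-32859089, and a log2 difference of 0.06. Its other probe, designed on a cardiac triadin cDNA at chr10:32919981-32920040, had 229 and 360 units and a difference of -0.09. Jsrp1 had 18842 and 32929 units at its brighter probe and 1723 and 2699 units at the probe printed above, with differences of 0.06 and -0.10. All 4 values lay within their scanner errors of 0.20 to 0.21.

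The junctophilins were unequal. Jph1, the junctophilin of skeletal muscle, had 91.3 and 129 units at 1 dim probe at chr1:16987562-16987621, and a log2 difference of -0.25 with an error of 0.25. Jph2, which is made in heart and skeletal muscle, had -1.09 at its 1 probe, at chr2:163162620-163162679 on the minus strand. Jph1 minus Jph2 was 0.84, a 1.79-fold shift in their ratio, with a scanner error of 0.32. No second probe of Jph2 is on the array to set beside this value. Its spot carried no flag on either array, and the local background was 32.0 and 37.0 units against mean spot signals of 2997 and 2332 units. Different probes of a gene gave log2 differences whose SD, pooled over the 5736 genes with several measured probes, was 0.36. That SD mixes technical spread with any difference between the transcripts that the probes read, and it holds no variation between replicate cultures. Beside Jph2, 3 dimmer member probes lay further from 0 than 0.36, of Ryr1, Atp2a2 and Casq2. The SD is a spread about the mean of each gene and not about 0. The share of all measured probes that far from 0 was not computed.

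**Figure D3:**
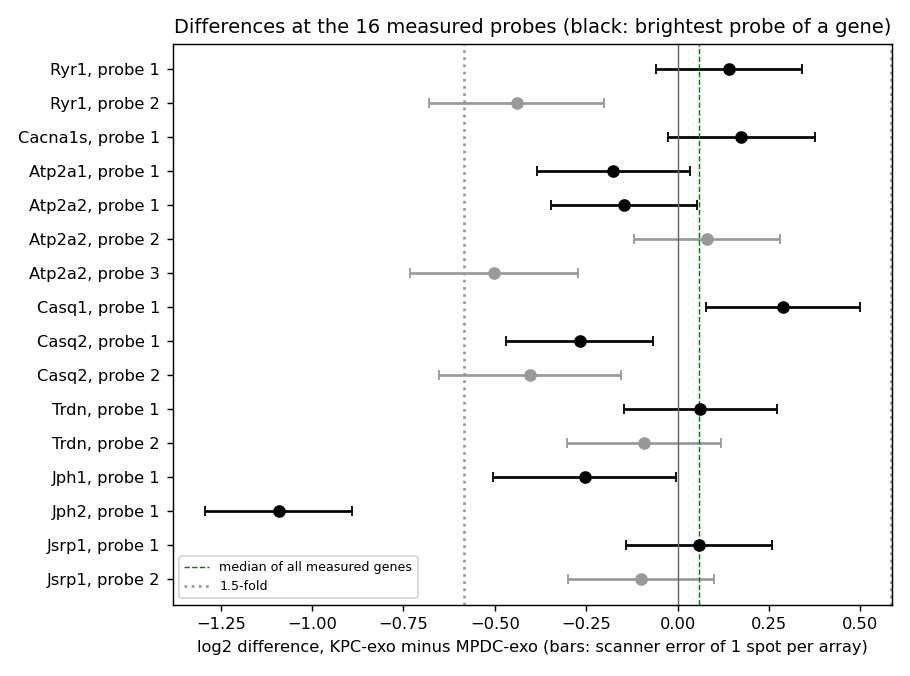
The log2 difference, KPC-exo minus MPDC-exo, at each of the 16 measured probes, with bars for the scanner error of 1 spot per array, black for the brightest probe of a gene and grey for the others. Jph2 lies past the dotted line at 1.5-fold, 6 of the 10 brightest probes lie within their bar of 0, and the dimmest probe of each gene with several lies lowest.

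Probes of 1 gene did not always agree. In each of the 5 members with several measured probes the dimmest probe had the lowest difference, against 50.7% of the 5736 genes with several. Where probes of 1 RefSeq transcript lay at least 200 bases apart, the upstream probe was lower than the downstream probe by 0.58 in Atp2a2, 0.14 in Casq2 and 0.16 in Jsrp1. Over 1869 transcripts with probes at least 1000 bases apart, the upstream probe minus the downstream probe had a median of -0.24. The upstream probe was also the dimmer in 88.0% of all 3542 transcripts compared at 200 bases or more, and the part of position and signal in the members' values was not tested.

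**Figure D4:**
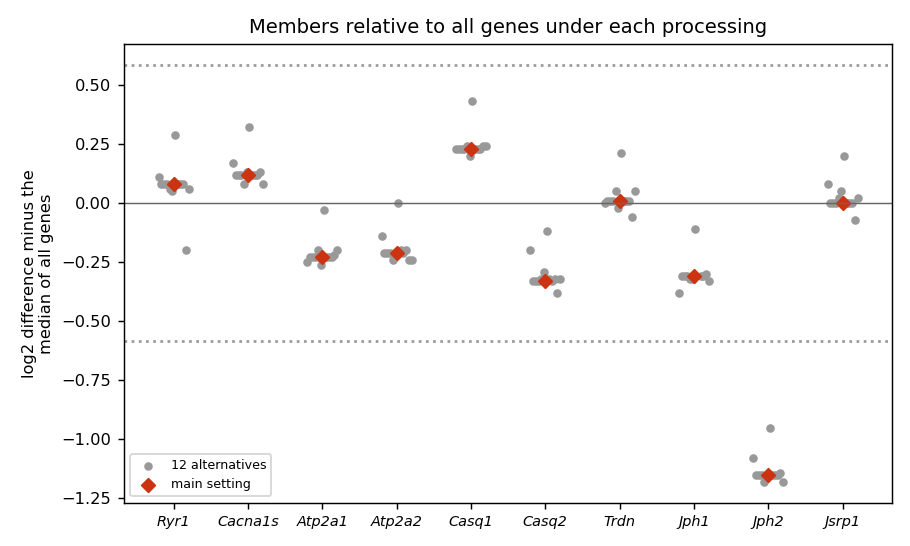
The log2 difference of each member minus the median of all genes, under the main processing (red diamonds) and 12 alternatives (grey points), with dotted lines at 1.5-fold. Jph2 lies between -0.95 and -1.18 and no other member passes either line, and settings that differ in centring alone coincide by construction.

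The start regions of 6 of the 10 members had entries among RefSeq promoters (GRCm38.p6), and those of Jph2 and Casq1, the members with the lowest and highest differences, are shown. Jph2 has 2 overlapping entries, and the upstream one is printed. Each is the 250 bases before the start, on the gene's strand. Capitals mark CANNTG, the E-box that myogenic factors can bind, searched on both strands.
Jph2: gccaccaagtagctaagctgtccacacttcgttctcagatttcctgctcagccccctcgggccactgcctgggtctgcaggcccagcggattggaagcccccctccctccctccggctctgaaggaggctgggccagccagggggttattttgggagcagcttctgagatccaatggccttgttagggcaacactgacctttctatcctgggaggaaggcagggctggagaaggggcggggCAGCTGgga
Casq1: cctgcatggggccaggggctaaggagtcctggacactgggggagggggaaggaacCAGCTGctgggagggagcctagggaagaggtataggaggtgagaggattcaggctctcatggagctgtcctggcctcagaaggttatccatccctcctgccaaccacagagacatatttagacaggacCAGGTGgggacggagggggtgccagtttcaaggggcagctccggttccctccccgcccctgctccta
The Jph2 stretch is chr2:163397994-163398243 and the Casq1 stretch chr1:172219896-172220145, both on the minus strand. The E-box CAGCTG, which is one form of CANNTG, occurred once in each, and also in the stretches of Cacna1s and Atp2a1. It was found in 13.0% of the 32851 stretches of this length, and CANNTG in 66.2%. No CArG box was found in the 6 members, and a MEF2 motif was found in Casq2 alone, against 1.47% and 1.69% of all stretches. The member with the lowest difference and the member with the highest thus both carry CAGCTG, and no match was tied to a difference.

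The wider calcium cycle held 73 listed genes in 10 roles, the members among them, of which 72 were on the array and 63 were measured. At the brightest probe, 0 of these 63 were higher and 3 lower by 1.5-fold or more. The shares over all genes were 3.73% and 3.7%, and the median difference of the 63 was 0.03. Past a log2 difference of 0.32, a looser size, 6 were higher and 7 lower, beside 15.5% and 10.1% of all genes. At 1.5-fold the lower count was 5 when arrays were centred on the median of all probes, beside 4.37% of all genes. Beside Jph2 the lower genes were Slc8a1 and Camk2a. Slc8a1 encodes a sodium-calcium exchanger of the plasma membrane and was 2.01-fold lower at 1 dim probe, while its other 3 probes were not measured. Camk2a encodes a calmodulin-dependent kinase and was 1.55-fold lower, at -0.63, also at 1 measured probe of 3. It did not pass 1.5-fold after normexp, and was not called when spots flagged for their background were left out. Probes other than the brightest passed 1.5-fold higher in Camk2d (1.44), Nfatc3 (1.12) and Asph (0.6). They passed it lower in Cacna2d1 (-0.98), Fkbp1a (-0.83) and Ppp3r1 (-0.7).

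Around the voltage sensor all 5 genes were measured, and Cacna2d1, an auxiliary subunit, was furthest from 0 at 0.27, with its 6 probes spread from -0.98 to 0.33. Stac3, an adaptor that the sensor needs, had -0.01. Around the release channel 9 of 10 genes were measured, and Fkbp1a, whose product binds and steadies the channel, was lowest at -0.54, with -0.83 at its other probe. Fkbp1a passed 1.5-fold when arrays were centred on the median of all probes, at -0.59, and with the mean over its probes, at -0.68. When spots flagged for their background were left out, it had -0.83. Its relative Fkbp1b had 0.37 at the brightest probe and -0.24 at another. The cardiac channel gene Ryr2 was not measured on either array, that is not well above background, and Ryr3 had 0.08. Of the pump regulators, Sln, which encodes the inhibitor sarcolipin, had 0.44 at a dim probe, and Pln was measured on neither array.

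In the lumen of the reticulum all 6 genes were measured, with a median of 0.15 and Casq1 furthest from 0. Calr, the general calcium store protein of the endoplasmic reticulum, had 0.20. Among junction genes other than members, 7 of 9 were measured, with a median of 0.13 and a range from -0.04 to 0.50. The highest were Cav3, a coat protein of membrane folds, at 0.50 and Tmem38a, a potassium channel of the reticulum, at 0.43. Jph4 had 0.18, and Jph3 was measured on neither array. None of these 7 genes was as low as Jph2, although no test of that difference was possible.

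Store-operated entry genes ranged from -0.19 in Orai1, which encodes the entry channel, to 0.08. The IP3 receptor genes, channels of the endoplasmic reticulum, ranged from -0.28 in Itpr3 to 0.11. Genes of mitochondrial entry ranged from -0.19 in Mcu, the uniporter, to 0.32 in Letm1. Of the plasma membrane pumps and exchangers, 4 of 7 were measured. Atp2b4 passed that filter after MPDC-exo only, with log2 levels of -3.19 after MPDC-exo and -4.44 after KPC-exo. Passing after MPDC-exo only favours a lower value after KPC-exo, so its direction was not tested. A fold of 1.48 lower was computed against the dimmest passing signal anywhere on the KPC-exo array, or its own signal if higher. That limit is not the threshold of its own spot, so the fold is not a firm minimum. Of the cytosolic buffers and sensors, 13 of 14 were measured, with a median of -0.07, and Pvalb, which encodes the buffer parvalbumin, had -0.55 at a dim probe.

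**Figure D5:**
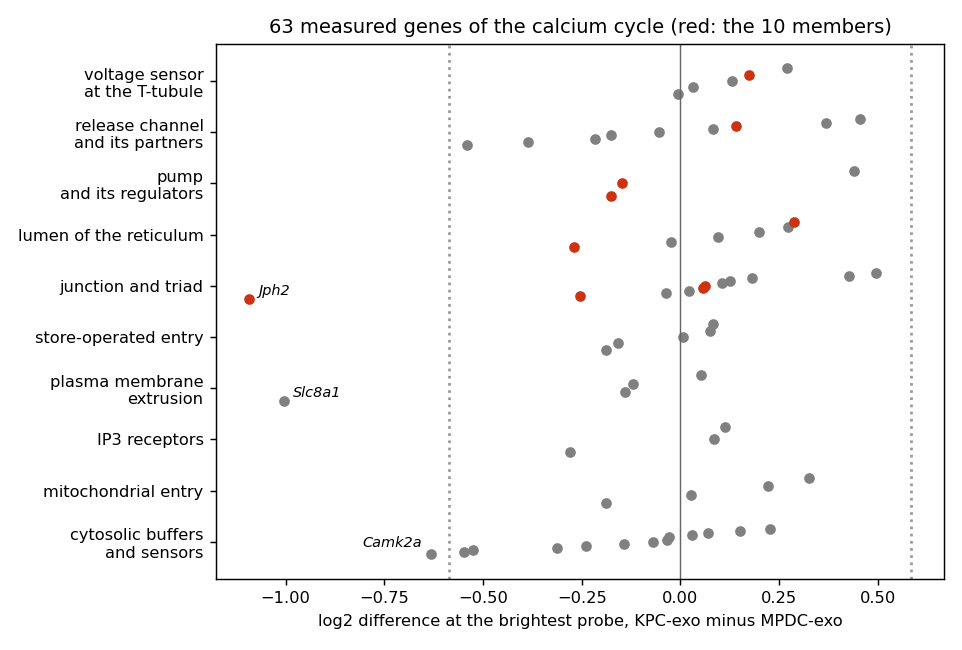
The log2 difference at the brightest probe for the 63 measured genes of the calcium cycle, by role, with the members in red, other genes in grey and dotted lines at 1.5-fold. Jph2, Slc8a1 and Camk2a lie below the lower line and no gene lies above the upper line.

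All 10 myotube markers were measured, none past 1.5-fold, with a median log2 difference of -0.05 and a range from -0.43 in Ckm to 0.34 in Tnnt3. Of the 10, 7 lay below the median of all genes. Their summed level relative to the 75th percentile, which the brightest probes set, was 563 after MPDC-exo and 588 after KPC-exo. Of the myoblast markers 2 of 3 were measured, with sums of 10.8 and 9.87, and Myf5 was not well above background. The 4 proliferation markers summed to 15.1 and 12.2, a log2 difference of -0.31. Mki67, Top2a and Ccnb1 had -0.33, -0.41 and -0.41, while Cdk1 went the other way, at 0.11. All 5 fibroblast markers were measured, with sums of 330 and 323, or 32.9 and 38.0 without the bright Col1a2 probe. Dpt and Lum had log2 levels of -0.86 and -0.82 after MPDC-exo. Of the cardiomyocyte markers Nppa and Nppb were measured, both dim, with sums of 0.321 and 0.271, and Myh6 and Ryr2 were not well above background. Of the adipocyte markers 1 of 3 was measured, with sums of 0.21 and 0.254. Of the epithelial markers of the exosome sources 1 of 7 was measured, Krt19, at log2 levels of -2.47 and -2.34. The part of these cells in the value of Jph2 was not tested.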

How the data were processed

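Per the labels, Cy3 was incorporated into cRNA made from the total RNA of both cultures, for 1-colour arrays. Per the submitters' processing notes, Agilent Feature Extraction 10.7.1.1 read the spots. The deposited intensity values are linear and were not normalized between arrays. The authors also deposited a table of log2 values, of unstated normalization, which served as an alternative.

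Spots flagged as non-uniform or population outliers were left out (102 and 166 spots), log2 signals were averaged per probe, and each array's 75th percentile was subtracted. A gene counted as measured where both arrays had a probe of it well above background, and the brightest such probe stood for it. No spot was saturated. Well above background were 45.9% of probes after MPDC-exo and 47.6% after KPC-exo. Accessions of 32994 of 56605 probes matched RefSeq names (GRCm38.p6), and other probes kept their file name. Per the file headers, positions refer to mm9.

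Groups follow the titles in the labels. The members and lists were chosen with earlier results of these data known. All members are named, and of the calcium cycle list each gene past 1.5-fold and the gene furthest from 0 in each role, with some partners of the members chosen after their values were seen. No gene is named for likeness of pattern, since 2 arrays give none. The number of arrays limits the precision, with 1 per group. The tools were R 4.3.3, limma 3.58.1, Python 3.11.15, pandas 2.3.3, numpy 2.4.6 and matplotlib 3.10.9. Alternatives changed the background correction (normexp, offset 50), centring, normalization, filter, flags, probe choice, source of values and fold.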

Additional observations from a re-analysis of the deposited data

How the results depend on the processing

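Jph2 was at least 2-fold lower in 11 of 12 alternatives, with log2 differences from -1.16 to -1.02, and had -0.09 when arrays were centred on spike-in probes. With that centring 9 members were at least 1.5-fold higher and 0 lower, with a median of 0.95. In the calcium cycle 57 genes were higher and 0 lower, with a median of 1.03. Of all measured genes 93.4% were higher and 0.335% lower with the same centring. Relative to the median of all genes, which cancels any centring, Jph2 had -1.08 with normexp and -1.16 with cyclic loess, against -1.15. The mean over probes could not move a gene with 1 probe. Nor could the filters on dim probes or the handling of flags move Jph2 much, as its 1 probe was bright and unflagged. Its log2 difference was -1.09 in each of those settings. The deposited log2 values gave -1.15, the same as quantile normalization. The count of lower calcium cycle genes was 5 of 63 when centred on the median of all probes or the percentile over detected probes. It was also 5 of 63 with cyclic loess. The shares of all genes lower in these 3 settings were 4.37%, 4.39% and 4.54%. With no filter on dim probes the count was 6 of 72, beside 7.13% of all genes. At the looser size, a log2 difference of 0.32, 6 calcium cycle genes were higher and 7 lower, beside 15.5% and 10.1% of all genes. Ryr1 had -0.15 with the mean over its probes, in place of 0.14. Jph1 had no value under the stricter filter. With dim signal, as in Jph1 and the lower probes of Ryr1, Atp2a2 and Casq2, precision is least. No paired analysis was possible because each group had 1 array.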

Other observations

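The difference between the arrays ran along transcripts. Over 3542 RefSeq transcripts with measured probes at least 200 bases apart, the most upstream probe minus the most downstream one had a median log2 difference of -0.13, and the upstream probe was the lower in 62.2%. Where the probes were at least 1000 bases apart, these values were -0.24 and 69.5% over 1869 transcripts, and at shorter distances -0.04 and 54.0% over 1673. The upstream probe was also the dimmer in 88.0% of the 3542, so position and signal are not separate here. Atp2a2, with 1506 bases between its probes, had -0.58, beyond both medians, and Casq2, with 1755 bases, had -0.14. The measure was chosen after seeing that the dimmest probe was lowest in 5 of 5 members.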
